A study of Mus musculus with 12 samples.

Results

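The 10 genes described here build or bind the neuronal cytoskeleton. They are the neurofilament genes Nefl, Nefm and Nefh, the related internexin gene Ina, the actin-binding genes Nexn and Actn2, and the microtubule-associated genes Mapt, Map1b, Stmn2 and Dcx. All 10 were found among the 25428 probe sets of the study, each as 1 probe set named by its gene identifier. They were chosen by name after earlier results of the same arrays, in which Nexn and Nefl stood out between the genotypes. Their differences between genotypes are therefore given as a description. Which of them passed the threshold of the fit over all probe sets is stated in the same way, and these calls are not independent evidence of a change.

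The arrays measured RNA from the striatum of both hemispheres of C57BL/6J mouse embryos at embryonic day 18.5. The 6 wild-type (WT) embryos and the 6 embryos labelled Nestin-Cre (Foxp1-/-), called cKO here, had 1 array each. Nestin-Cre acts in neural progenitors, so recombination is not limited to striatal neurons, and cells of other origin in the tissue keep their Foxp1 gene. The labels list no Cre or floxed allele for the WT embryos. The labels call the 6 samples of each group biological replicates and do not say whether embryos shared a litter.

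Neurofilaments are heteropolymers of light, medium and heavy chains, joined in the central nervous system by internexin. They fill the axon and set its calibre, and during development internexin and the light and medium chains appear before the heavy chain. Nexilin and alpha-actinin 2 bind actin filaments and are best known from the Z-disc of muscle, and alpha-actinin 2 is also found in dendritic spines. Tau and MAP1B bind along microtubules, stathmin 2 binds tubulin dimers in growth cones, and doublecortin binds microtubules of migrating and newly formed neurons.

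Values are RMA expression on the log2 scale, where 1 unit is a doubling and every array had a median of 5.71. Foxp1, the targeted gene, was lower in cKO on all 6 arrays, at 10.23 ± 0.08 (SD, n = 6) against 11.14 ± 0.17 (SD, n = 6). Correlations between arrays ran from 0.992 to 0.998, and WT replicates 3 and 6 were the least like the rest of their group. Of 22 measured markers of striatal projection neurons, 20 lay above the median level.

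Among the neurofilament genes, Nefl, the light chain, had the widest difference between genotypes. Its level was 9.09, 8.77, 9.57, 8.59, 8.76 and 8.88 in WT replicates 1 to 6. In cKO replicates 1 to 6 it was 8.18, 8.38, 8.06, 8.29, 8.12 and 8.04. The groups did not overlap and were 0.21 apart at their nearest arrays, and WT replicate 3 was the highest of all. The WT mean of 8.94 ± 0.35 (SD, n = 6) and the cKO mean of 8.18 ± 0.13 (SD, n = 6) gave a difference of -0.76 ± 0.14 (SE), or 1.70-fold lower in cKO.

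Nefm, the medium chain, whose gene is the next protein-coding gene to Nefl on chromosome 14, differed less. In WT it read 6.31, 6.17, 6.41, 6.01, 6.10 and 6.19 on replicates 1 to 6. In cKO it read 5.95, 6.07, 6.04, 5.71, 5.96 and 5.94 in the same numbering. The groups overlapped: 4 cKO arrays lay below the lowest WT array, and 5 WT arrays lay above the highest cKO array. The difference was -0.25 ± 0.07 (SE), from 6.20 ± 0.14 (SD, n = 6) to 5.95 ± 0.13 (SD, n = 6). These levels are close to the array median.

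Nefh, the heavy chain, read 5.61 to 5.73 in WT and 5.68 to 5.81 in cKO, at the median of the array. Its difference was 0.04 ± 0.03 (SE), and the groups overlapped. Ina, which forms filaments with the chains above, read 12.18 to 12.27 in WT and 12.16 to 12.24 in cKO. Its difference was -0.02 ± 0.02 (SE), with a 95% interval of -0.06 to 0.02. The 4 genes of this filament class thus had differences from -0.76 for Nefl to 0.04 for Nefh.

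**Figure D1:**
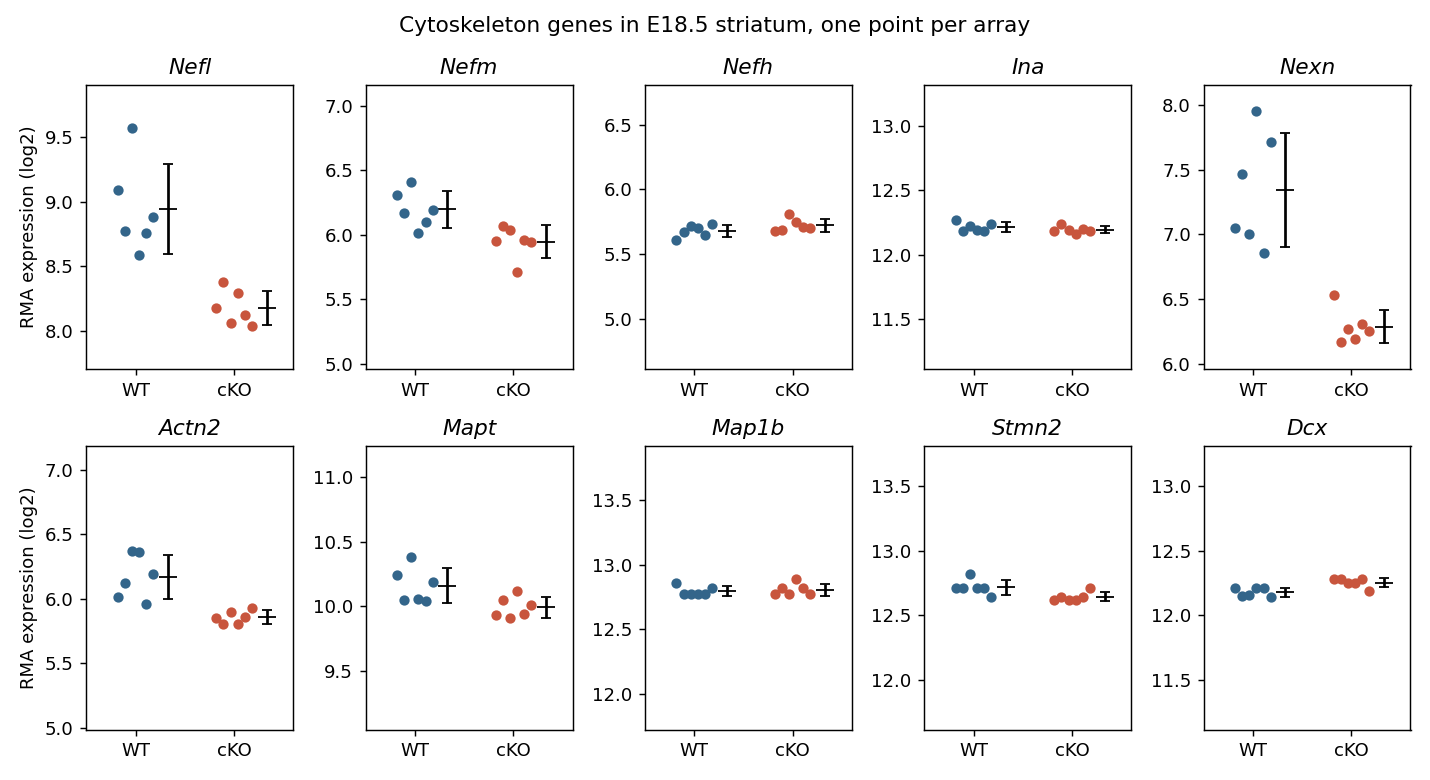
RMA expression (log2) of the 10 genes in WT (blue) and cKO (red), 1 point per array in replicate order, with the mean and SD in black; every panel spans the same height. Nefl, Nexn and Actn2 separate completely between the genotypes, and their WT points are spread more widely than their cKO points.

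Nexn, which encodes the actin-binding protein nexilin, had the largest difference of the 10. Its level was 7.05, 7.47, 7.0, 7.96, 6.86 and 7.72 in WT replicates 1 to 6. In cKO replicates 1 to 6 it was 6.53, 6.17, 6.27, 6.19, 6.31 and 6.25. No array overlapped, with a gap of 0.34 between the lowest WT and the highest cKO array, and WT replicates 4 and 6 were the highest. The mean went from 7.34 ± 0.44 (SD, n = 6) to 6.29 ± 0.13 (SD, n = 6), a difference of -1.06 ± 0.17 (SE), or 2.08-fold lower in cKO.

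Actn2, which encodes the actin crosslinker alpha-actinin 2, read 6.01, 6.12, 6.37, 6.36, 5.96 and 6.19 in WT replicates 1 to 6. In cKO replicates 1 to 6 it read 5.85, 5.80, 5.90, 5.80, 5.86 and 5.93. The groups again did not overlap, but were only 0.03 apart. The difference was -0.31 ± 0.07 (SE), from 6.17 ± 0.17 (SD, n = 6) to 5.85 ± 0.05 (SD, n = 6), at levels near the array median.

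Of the 10 genes, 2 were lower in cKO at an adjusted p under 0.05 in limma, Nexn and Nefl, against 0.429% of all probe sets, and 0 were higher, against 0.299%. At an unadjusted p under 0.05 in limma, 6 were lower, against 5.67% of all probe sets, and 1 was higher, against 5.06%. Complete separation of the arrays with cKO lower was seen for 3 of the 10, against 0.822% of all probe sets. Separation with cKO higher was seen for 0 of the 10, against 0.562%. The median difference of the 10 was -0.122, and over all probe sets it was -0.000773. Because the genes were picked with this contrast known, nothing is read from these counts.

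Several of these calls changed with single arrays or with the settings of the fit. Nefl missed the threshold without 9 of the 12 arrays, although its difference moved little. It was -0.73, -0.80 and -0.78 without WT replicate 1, 2 or 6, and -0.76, -0.80, -0.74, -0.79, -0.75 and -0.74 without cKO replicates 1 to 6 in turn. Without WT replicate 3, its highest array, the difference was -0.64 and the call held. Nexn missed the threshold without cKO replicate 2, at -1.04. Actn2 passed it without WT replicate 1 (-0.34) or 5 (-0.35), and Dcx without cKO replicate 6 (0.09). With all arrays kept, Actn2 also passed when dim probe sets were left out (-0.31), with a trended robust prior (-0.31) and with Y-linked expression in the model (-0.33).

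The mean of 3 Y-linked genes was 5.34 to 5.40 on WT replicates 3 and 4 and cKO replicates 2, 3 and 5, and 7.32 to 7.71 on the other arrays, so both groups held arrays of both levels. WT replicates 3 and 4 were also the 2 highest arrays for Actn2 and the highest and the lowest WT arrays for Nefl. With this level as a covariate the difference was -0.78 ± 0.15 (SE) for Nefl and -1.07 ± 0.18 (SE) for Nexn, and both still passed.

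In bulk tissue, fewer cells of a type and less RNA per cell cannot be told apart. The 22 measured projection neuron markers averaged 8.42 to 8.73 in WT and 8.26 to 8.40 in cKO, without overlap. In limma 3 of the 22 fell and 0 rose, against 0.429% lower and 0.299% higher over all probe sets. Those that fell included Foxo1 by 1.08 ± 0.17 (SE; limma adjusted p = 0.0141) and Ikzf1 by 0.59 ± 0.07 (SE; limma adjusted p = 0.00353), both genes of transcription factors. At an unadjusted p under 0.05 in limma, 12 of the 22 were lower and 1 was higher. These are 54.5% and 4.55%, against 5.67% and 5.06% of all probe sets. Complete separation with cKO lower was seen for 4 of the 22, against 0.822% of all probe sets. The list was mixed: 17 had a difference below 0 and 5 above, with a median of -0.211 and a range of -1.08 to 0.38. The highest was Penk, at 0.38 ± 0.08 (SE; limma adjusted p = 0.0501), with 5 cKO arrays above the highest WT array. The 14 cortical glutamatergic markers averaged 6.27 to 6.54 in WT and 6.27 to 6.69 in cKO. Of these 14, 13 had a difference above 0, with a median of 0.059 and a range of -0.08 to 0.51. In limma 0 of them passed and 2 were higher at an unadjusted p under 0.05. With the cortical level as a covariate the difference was -0.70 for Nefl and -1.02 for Nexn, and both missed the threshold. The part of cell composition in the differences was not tested beyond this. Nexilin and alpha-actinin 2 are also found in muscle. The 18 markers of muscle and mural cells averaged 6.08 to 6.11 in WT and 6.09 to 6.11 in cKO. Of this list, the muscle-defining genes Myh6, Myl7, Tnnt2 and Ttn lay below the array median of 5.71. Their cKO and WT means were 5.49 and 5.50 for Myh6, 5.40 and 5.41 for Myl7, 5.66 and 5.67 for Tnnt2, and 5.47 and 5.49 for Ttn. Other genes of the list were brighter, and 7 of the 18 lay above the median level. Among these, cKO and WT means were 9.45 and 9.36 for Rgs5, 7.60 and 7.48 for Pdgfrb, and 6.22 and 6.26 for Acta2.

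The promoter of Actn2 is shown beside that of Vcl, the vinculin gene. Vcl is described with the other cytoskeleton genes below, and the groups separated completely for both genes, with cKO lower. Each sequence covers 250 bases before and 50 bases after the RefSeq transcription start in GRCm38.p6, 5′ to 3′ on the gene's strand, and capitals mark a match to the CArG box, the binding motif of serum response factor.

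Actn2, chr13:12340683-12340982, minus strand:
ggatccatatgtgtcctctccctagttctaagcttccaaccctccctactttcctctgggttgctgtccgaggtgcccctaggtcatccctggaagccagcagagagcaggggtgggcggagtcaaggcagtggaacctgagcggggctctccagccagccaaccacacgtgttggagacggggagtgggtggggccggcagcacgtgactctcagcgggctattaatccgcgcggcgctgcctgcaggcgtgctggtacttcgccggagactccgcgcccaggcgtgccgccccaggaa

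Vcl, chr14:20929148-20929447, plus strand:
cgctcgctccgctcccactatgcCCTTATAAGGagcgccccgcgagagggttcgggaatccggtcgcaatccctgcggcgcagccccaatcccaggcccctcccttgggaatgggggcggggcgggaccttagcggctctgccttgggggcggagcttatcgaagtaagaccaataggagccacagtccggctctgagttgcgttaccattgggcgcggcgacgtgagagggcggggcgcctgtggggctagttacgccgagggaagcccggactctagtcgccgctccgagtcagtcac

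The Vcl window held 1 CArG box, which begins 227 bases before the start, and the Actn2 window held 0. On both strands, 1.63% of the 32851 promoters in the table held this motif. The forkhead motif TGTTTAC, found in 3.65% of all promoters, and the AT-rich forkhead motif TATTTAT, found in 5.6%, were absent from both windows. They were also absent from the entries of Ina, Map1b and Dcx. A match or its absence describes these letters only. With Actn2, 4 of the 10 genes had a promoter entry, and Nefl, Nefm, Nefh, Nexn, Mapt and Stmn2 had none.

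The microtubule genes differed by less than Nefl, Nexn and Actn2 in log2 units. Mapt, which encodes tau, read 10.24, 10.05, 10.38, 10.06, 10.04 and 10.19 in WT replicates 1 to 6 and 9.93, 10.05, 9.91, 10.12, 9.94 and 10.01 in cKO replicates 1 to 6. The groups overlapped, with 4 cKO arrays below the lowest WT array. The difference was -0.16 ± 0.06 (SE). WT replicate 3 was the highest array here as it was for Nefl and Nefm.

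Stmn2, the growth cone stathmin, read 12.64 to 12.82 in WT with a median of 12.71, and 12.62 to 12.71 in cKO with a median of 12.63. Its difference was -0.08 ± 0.03 (SE) and the groups overlapped. Dcx, the marker of migrating and newly formed neurons, lay the other way: it read 12.14 to 12.21 in WT and 12.19 to 12.28 in cKO, a difference of 0.08 ± 0.02 (SE). For Dcx, 5 cKO arrays were above the highest WT array, and cKO replicate 6 was not. Map1b, which encodes a microtubule-associated protein of growing axons, read 12.77 to 12.86 in WT and 12.77 to 12.89 in cKO, a difference of 0.01 ± 0.02 (SE) with a 95% interval of -0.04 to 0.07.

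The values of Map1b and Stmn2 moved in steps, because the arrays had been given nearly the same distribution and a gene at the same rank on different arrays takes nearly the same value. Map1b took ranks 18 to 21 from the top over the 12 arrays and only 5 distinct values, and Stmn2 took ranks 20 to 25 and also 5 values. Ina took ranks 48 to 56, with 8 distinct values, and Dcx ranks 47 to 58, with 8. The Stmn2 difference thus rests on moves of at most 5 rank places. Nefl, by contrast, took ranks 1392 to 2749 in WT and 3085 to 3613 in cKO, and Nexn ranks 3747 to 6212 in WT and 7382 to 9045 in cKO.

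**Figure D2:**
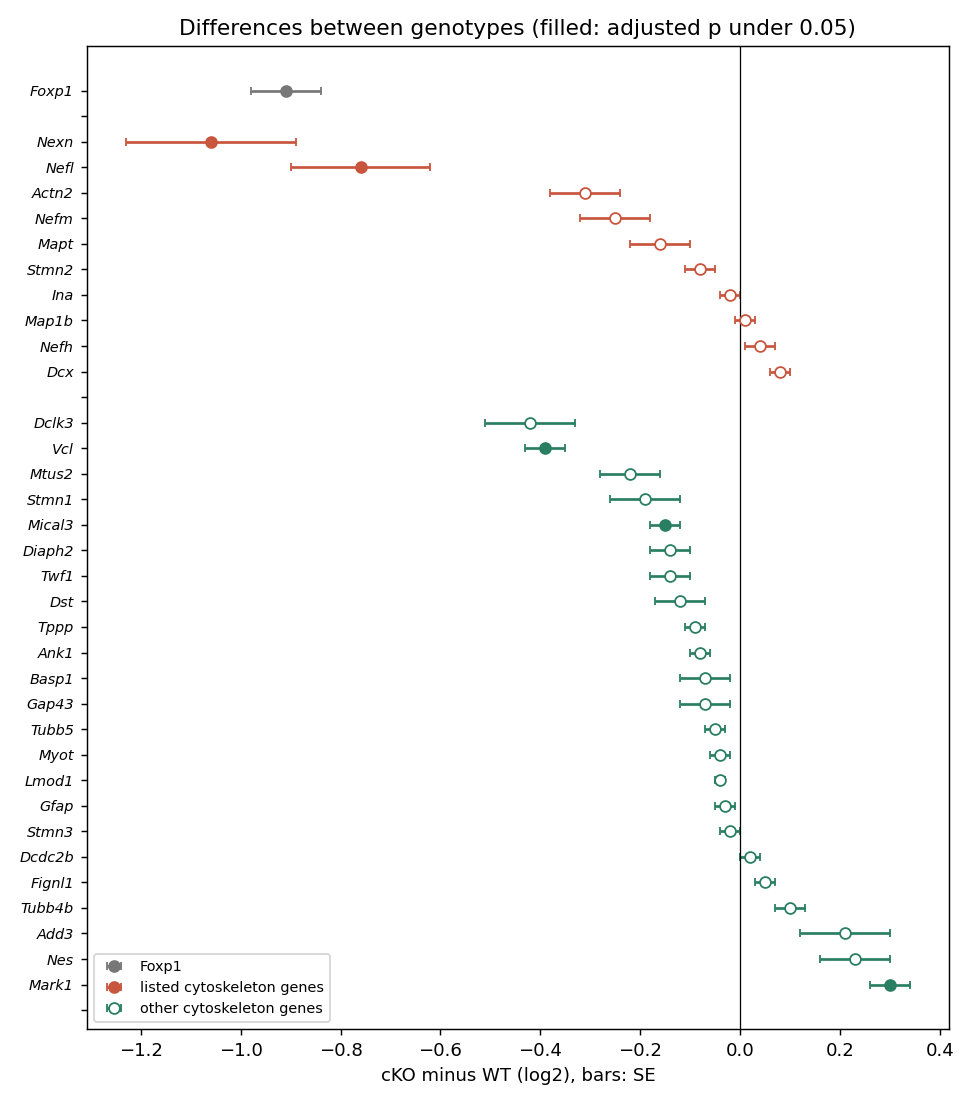
Difference between genotypes (cKO minus WT, log2) with limma's SE for Foxp1 (grey), the 10 listed genes (red) and the other named cytoskeleton genes (green); filled points had an adjusted p under 0.05. Nexn at -1.06 and Nefl at -0.76 lie far to the left of the other cytoskeleton genes, which run from -0.42 for Dclk3 to 0.30 for Mark1.

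The WT embryos varied more than the cKO embryos in the genes that separated. The SD in WT was 2.60 times that in cKO for Nefl, 3.44 times for Nexn and 3.30 times for Actn2. Over all probe sets the median of this ratio was 1.13, and 13.9% of probe sets had a ratio over 2. The ratio was 2.26 for Foxp1, and from 0.81 for Map1b to 1.64 for Mapt among the other 7 genes. A wide WT spread was not particular to the genes that separated. Among the projection neuron markers the ratio ran from 0.49 for Isl1 to 4.30 for Foxo1. It was 3.30 for the marker Adcy5 and 5.77 for the ankyrin gene Ank3, and the groups overlapped for both.

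Variation between embryos of 1 genotype was not used to choose the genes. Across the 6 WT arrays, Nefl and Nefm ranked the embryos in the same order, with a Pearson r of 0.96 (exact permutation p = 0.00139, adjusted p = 0.153) and a Spearman rho of 1 (exact permutation p = 0.00278, adjusted p = 0.306). Without the 2 arrays farthest from the Nefm median, r was 0.96. Across the 6 cKO arrays, r was -0.15 (exact permutation p = 0.818, adjusted p = 0.958) and rho 0.20 (exact permutation p = 0.714, adjusted p = 1). Whether the relation differs between genotypes was not tested.

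Nefl and Mapt in WT had r = 0.95 (exact permutation p = 0.00694, adjusted p = 0.306) and rho = 0.83 (exact permutation p = 0.0583, adjusted p = 0.802), and r was 0.67 without the 2 arrays farthest from the Mapt median. For Nefl and Nexn, r was -0.56 (exact permutation p = 0.258, adjusted p = 0.870) and rho -0.37 (exact permutation p = 0.497, adjusted p = 1) in WT, where the embryos highest for Nexn, replicates 4 and 6, were not those highest for Nefl, replicates 3 and 1. Without the 2 arrays farthest from the Nexn median, r was -0.29.

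For Nexn and Foxp1 among the WT embryos, r was 0.82 (exact permutation p = 0.0431, adjusted p = 0.611) and rho 0.89 (exact permutation p = 0.0333, adjusted p = 0.733), and r was 0.83 without the 2 arrays farthest from the Foxp1 median. In cKO r was 0.04 (exact permutation p = 0.940, adjusted p = 0.958) and rho 0.37 (exact permutation p = 0.497, adjusted p = 1). For Nefl and Foxp1 in WT, r was -0.11 (exact permutation p = 0.833, adjusted p = 0.958) and rho -0.14 (exact permutation p = 0.803, adjusted p = 1).

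For Nefl and Actn2 in cKO, r was -0.93 (exact permutation p = 0.0111, adjusted p = 0.306) and rho -0.94 (exact permutation p = 0.0167, adjusted p = 0.611), over an Actn2 range of only 5.80 to 5.93.

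These relations belong to a family of 110, which holds every pair of the 10 genes and each gene with Foxp1, in each genotype. After adjustment over the family 0 passed, and at an unadjusted exact permutation p under 0.05 there were 8 by Pearson and 6 by Spearman. With 6 arrays the smallest p that 720 pairings can give is 0.00139. Nefl and Nefm in WT had that p by Pearson, and its adjusted p was 0.153 (exact permutation test). A single relation could therefore not pass alone, and that 0 passed says little. All 110 relations are descriptions of these embryos.

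**Figure D3:**
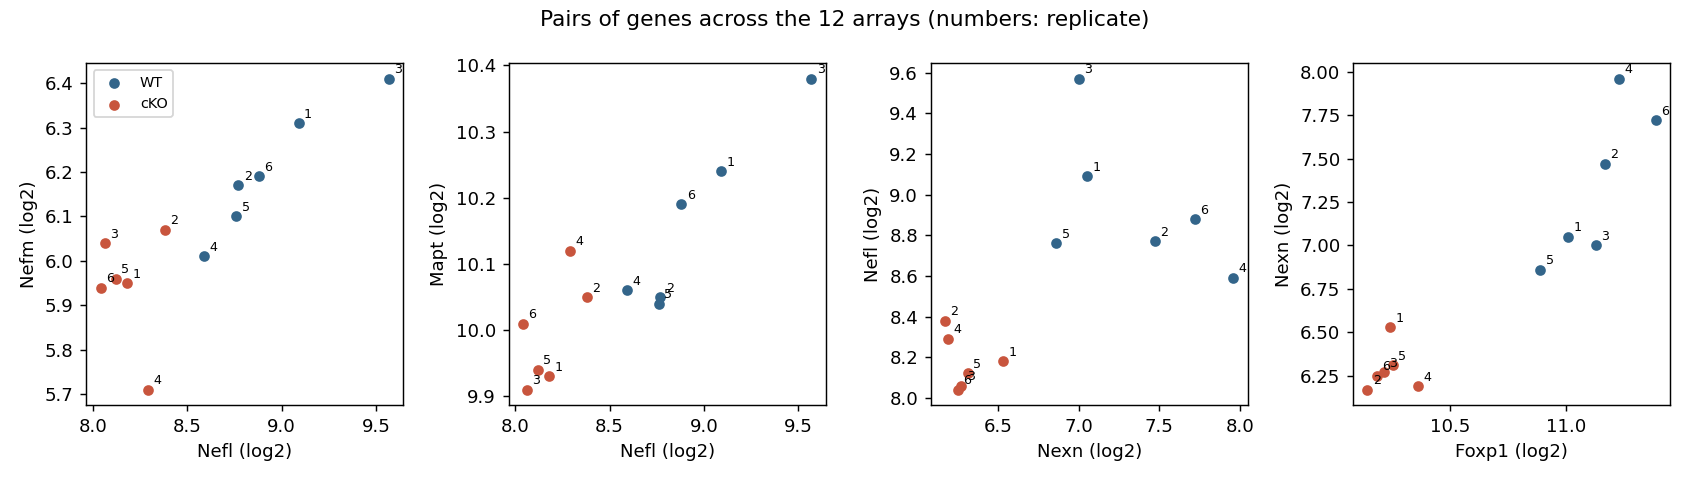
Log2 expression of pairs of genes on each array (WT blue, cKO red, numbers give the replicate): Nefm against Nefl, Mapt against Nefl, Nefl against Nexn, and Nexn against Foxp1. Within WT, r was 0.96 for Nefl and Nefm, 0.82 for Foxp1 and Nexn, and -0.56 for Nexn and Nefl.

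The level of each gene was also set against the mean of the projection neuron and the cortical markers within each genotype, which gave 40 relations. After adjustment 0 passed (smallest adjusted p 0.194, exact permutation test), and 4 had an unadjusted Pearson p under 0.05. Here too a single relation could not pass alone, even at the smallest p that 6 arrays allow. Actn2 and the projection neuron markers across WT embryos had r = 0.92 (exact permutation p = 0.0181, adjusted p = 0.194) and rho = 0.94 (exact permutation p = 0.0167, adjusted p = 0.333), and r was 0.84 without the 2 most distant arrays. Mapt and the cortical markers in WT had r = -0.88 (exact permutation p = 0.0167, adjusted p = 0.194) and rho = -0.94 (exact permutation p = 0.0167, adjusted p = 0.333), and r was -0.72 without those 2. The others were Nefh in WT, with r = 0.97 to the projection neuron markers over a range of only 5.61 to 5.73, and Ina in cKO, with r = -0.91, which was -0.18 without the 2 most distant arrays. For Nefl and Nexn with the projection neuron markers in WT, r was 0.18 (exact permutation p = 0.760) and 0.56 (exact permutation p = 0.217).

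The genes most like Nefl and Nexn were sought by the correlation of deviations from the group means over the 12 arrays, among 12286 other named genes above the median level. The highest of so many values are high through their selection, for both Nefl and Nexn. Values within 1 genotype or with arrays left out come from the same arrays and are no separate check. Whether any value exceeds what chance gives among 12286 genes was not tested. For Nefl these were Tmem170b (0.97), Bri3bp (0.96), Zfp780b (0.93), Get1 (0.93) and Mknk2 (0.92). Within WT alone r was 0.99, 0.99, 0.97, 0.96 and 0.96, and within cKO alone 0.89, 0.77, 0.71, 0.66 and 0.87. Without WT replicates 3 and 4, where Nefl lay farthest from its group mean, the values over the remaining arrays were 0.93, 0.86, 0.83, 0.74 and 0.79. Mapt was 17th in this order, at 0.88 and at 0.79 without those arrays, Nefm was 561st at 0.64 and at 0.20 without them, and Ina 1204th at 0.50. None of the 5 genes passed the threshold between genotypes (limma adjusted p from 0.274 for Tmem170b to 0.836 for Bri3bp), and Zfp780b had a difference of 0.07.

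For Nexn the most alike were the receptor phosphatase gene Ptprm (0.90), Lrrc20 (0.88), the farnesyltransferase subunit gene Fntb (0.87), the semaphorin gene Sema3f (0.87) and Pcp4l1 (0.86). Within WT alone r was 0.97, 0.94, 0.94, 0.88 and 0.94 in this order. Within cKO alone it was 0.45, 0.83, -0.0037, 0.86 and 0.10, so for Fntb and Pcp4l1 the likeness lay in the WT arrays. Without WT replicates 4 and 5 the values over the remaining arrays were 0.86, 0.75, 0.71, 0.84 and 0.67. Actn2 was 939th, at 0.50 and at -0.07 without those arrays, and Nefl 11570th, at -0.54. Again none of the 5 passed between genotypes (limma adjusted p from 0.307 for Ptprm to 0.808 for Fntb).

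To see how the rest of the cytoskeleton behaved, 12 lists of 244 further genes were compared in the same fit, of which 229 were measured. In limma 2 fell in cKO, 1 rose and 226 did not pass, and at an unadjusted p under 0.05 there were 22 lower and 7 higher. These are 9.61% and 3.06% of the 229, and over all probe sets the shares were 5.67% and 5.06%. Their median difference was -0.0107, against -0.000773 over all probe sets, with 135 below 0 and 94 above.

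The falls were both among 36 actin crosslinkers and side binders. Vcl, which encodes vinculin, the linker of actin to adhesion sites, read 7.30, 7.27, 7.53, 7.42, 7.32 and 7.43 in WT replicates 1 to 6 and 7.05, 6.97, 7.0, 7.0, 6.95 and 6.96 in cKO replicates 1 to 6. The groups did not overlap. It fell by 0.39 ± 0.04 (SE), or 1.31-fold (limma adjusted p = 0.00113), and passed under all 24 alternatives, with adjusted p from 0.000231 to 0.0244.

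Mical3, a monooxygenase of the family that oxidises actin, lay between 8.25 and 8.38 on the WT arrays and between 8.14 and 8.23 on the cKO arrays, without overlap. It fell by 0.15 ± 0.03 (SE; limma adjusted p = 0.0180), and its adjusted p ran from 0.0106 to 0.136 over the alternatives. The call was lost without cKO replicate 2 (limma adjusted p = 0.0538) or 5 (limma adjusted p = 0.0557). The median over this list was -0.0219.

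The rise was in Mark1, a kinase that phosphorylates tau and other microtubule-associated proteins, 1 of 23 measured kinases and activators. It read 9.18, 9.18, 8.99, 9.24, 9.07 and 9.18 in WT replicates 1 to 6 and 9.50, 9.44, 9.47, 9.37, 9.44 and 9.43 in cKO replicates 1 to 6. The groups did not overlap. Mark1 rose by 0.30 ± 0.04 (SE; limma adjusted p = 0.00590), with limma adjusted p from 0.00156 to 0.0718 over the alternatives.

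No gene passed among the other intermediate filament genes or among the actinin, LIM and Z-disc genes. Of 9 other intermediate filament genes, 0 passed in limma and 1 was higher at an unadjusted p under 0.05: the value was 0.23 ± 0.07 (SE) for Nes, the nestin of neural progenitors (limma adjusted p = 0.189). Gfap, the astrocyte filament, had -0.03 ± 0.02 (SE; limma adjusted p = 0.614). Of 25 actinin, LIM and Z-disc genes 0 passed in limma and 1 was lower at an unadjusted p under 0.05. Their differences ran from -0.10 to 0.04, and the genes with the smallest p were Lmod1 (-0.04 ± 0.01, limma adjusted p = 0.370) and Myot (-0.04 ± 0.02, limma adjusted p = 0.473), both dim. Of the 25, 13 lay above the median level.

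Among microtubule genes, 0 of 27 further microtubule-associated proteins passed in limma, with 4 lower at an unadjusted p under 0.05. Tppp, which promotes tubulin polymerisation, had -0.09 ± 0.02 (SE; limma adjusted p = 0.0996), and Mtus2 had -0.22 ± 0.06 (SE; limma adjusted p = 0.154). Of the 3 other stathmins 0 passed, with 1 lower at an unadjusted p under 0.05, Stmn1 at -0.19 ± 0.07 (SE; limma adjusted p = 0.295), while Stmn3 had -0.02 ± 0.02 (SE; limma adjusted p = 0.656). Of 17 tubulins 0 passed in limma and 1 was higher at an unadjusted p under 0.05, Tubb4b at 0.10 ± 0.03 (SE; limma adjusted p = 0.267), which lay below the array median in both groups. Tubb5 had -0.05 ± 0.02 (SE; limma adjusted p = 0.536).

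In the doublecortin family 0 of 6 passed and 1 was lower at an unadjusted p under 0.05. Dclk3, a doublecortin-like kinase enriched in striatal projection neurons, had a difference of -0.42 ± 0.09 (SE; limma adjusted p = 0.0719), with all cKO arrays, at 6.53 to 6.85, below the WT arrays, at 6.92 to 7.48. Its adjusted p ran from 0.0198 to 0.242 over the alternatives. It passed without WT replicate 1 (limma adjusted p = 0.0409). Dcdc2b had 0.02 ± 0.02 (SE; limma adjusted p = 0.735).

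In the remaining 4 lists 0 genes passed in limma. For 44 actin and actin assembly genes, 5 were lower at an unadjusted p under 0.05, led by Twf1 (-0.14 ± 0.04, limma adjusted p = 0.186), which encodes an actin monomer binder, and the formin gene Diaph2 (-0.14 ± 0.04, limma adjusted p = 0.229). For 18 spectrin, ankyrin and membrane skeleton genes, 1 was lower and 1 higher at that level, Ank1 (-0.08 ± 0.02, limma adjusted p = 0.137) and the adducin gene Add3 (0.21 ± 0.09, limma adjusted p = 0.437). For 11 plakins and turnover genes, 1 was lower, the plakin gene Dst (-0.12 ± 0.05, limma adjusted p = 0.384), and Fignl1 had 0.05 ± 0.02 (limma adjusted p = 0.523). For 10 collapsin response mediators and growth cone proteins the count was 0, and the values were -0.07 ± 0.05 for Gap43 (limma adjusted p = 0.649) and -0.07 ± 0.05 for Basp1 (limma adjusted p = 0.680).

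**Figure D4:**
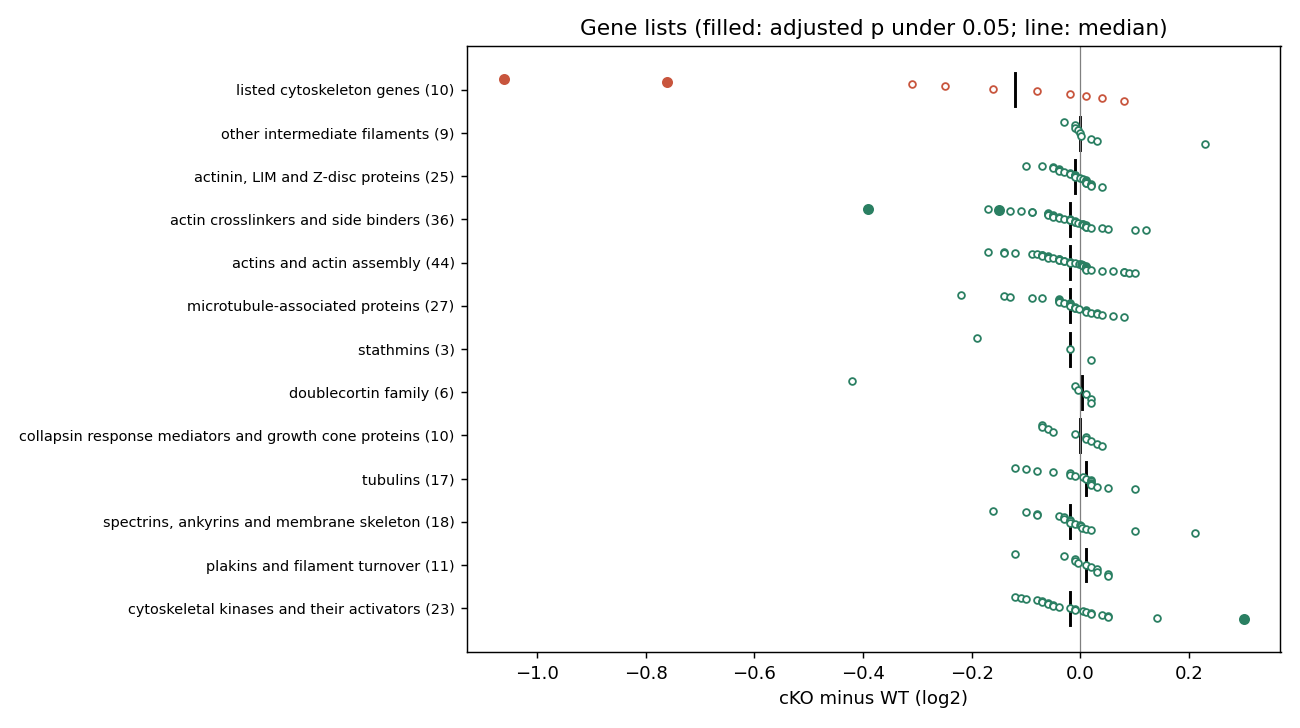
Difference between genotypes (cKO minus WT, log2) of each measured gene in the 10 listed genes (red) and in 12 further cytoskeleton lists (green), with the number of genes in parentheses; filled points had an adjusted p under 0.05 and black lines are medians. Beyond Nexn and Nefl, filled points are Vcl and Mical3 among the actin crosslinkers and Mark1 among the kinases.

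Markers of other cells on the same arrays gave the following levels. The 14 measured markers of immature neurons and neuroblasts averaged 8.99 to 9.17 in WT and 9.08 to 9.22 in cKO. In limma 0 of them passed, with 4 higher at an unadjusted p under 0.05. Of the 14, 11 had a difference above 0, with a median of 0.0865. Of 14 measured genes of dividing cells 1 rose, the mitotic kinase gene Aurkb, by 0.22 ± 0.04 (SE; limma adjusted p = 0.0303), and 4 were higher at an unadjusted p under 0.05. All 14 had a difference above 0, with a median of 0.107, and the list averaged 6.95 to 7.18 in WT and 7.01 to 7.23 in cKO. The ranges of both lists overlapped between genotypes, and they are given beside Dcx, a gene of immature neurons. Markers of astrocytes and radial glia averaged 7.98 to 8.13 in WT and 8.01 to 8.13 in cKO, those of the oligodendrocyte lineage 6.30 to 6.51 and 6.34 to 6.42, those of microglia and endothelium 6.07 to 6.11 and 6.07 to 6.15, and those of interneurons and cholinergic neurons 7.44 to 7.54 and 7.47 to 7.58. In that last list Maf rose by 0.57 ± 0.09 (SE; limma adjusted p = 0.0150) and Cxcr4 fell by 0.42 ± 0.08 (SE; limma adjusted p = 0.0341), and no gene of the other 3 lists passed. Their part in the results was not tested.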

How the data were processed

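Expression was measured on 12 arrays with 1 colour (biotin). The values deposited by the authors are log2 expression from RMA, a method named without a version in the submitters' processing notes. For the array model and probe definition the sources used here give nothing. Precision is limited by there being 12 arrays. Of 25428 probe sets, 24674 were named from the platform annotation, updated through a RefSeq table of GRCm38.p6. Groups were compared in limma 3.58.1 (R 4.3.3; lmFit, eBayes, two-sided) over all probe sets, with Benjamini-Hochberg adjustment over all of them and a threshold of 0.05; the script was tested on simulated data. The gene lists and members were chosen with earlier results of these arrays known. Named genes are the 10 genes and Foxp1, per list up to 4 genes past the threshold with the largest difference or otherwise the 2 with the smallest p, and the 5 genes most like Nefl and Nexn. Relations within a genotype used exact permutation tests (numpy 2.4.6), and those between pairs of genes were added after the data were seen. Of the Y-linked genes planned as a covariate, 3 were measured. Same-numbered arrays correlated from -0.22 to 0.15 in their deviations, so the numbers were not taken as pairs. Protein sequences were not used here, and motif searches covered both strands. The CArG box was added after the data were seen. Limma p-values set each difference against the variation between these embryos, and permutation p-values set each relation against re-pairings of the same arrays.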

Additional observations from a re-analysis of the deposited data

Results flagged for a closer look

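Among 68 sets of 6 arrays checked, for 34 named genes in each genotype, 5 had a single array whose gap to its nearest neighbour exceeded, as a share of the whole range, Dixon's 95% critical value. About 1 in 20 is flagged by chance alone. All 5 were in cKO. Nefm read 5.71 on cKO replicate 4, against 5.94 to 6.07 on the others. Stmn2 read 12.71 on cKO replicate 6, against 12.62 to 12.64 on the others, and Dcx 12.19 on the same array, against 12.25 to 12.28. Tubb5 read 13.27 there, against 13.36 on the other cKO arrays, a value shared through a common rank. Diaph2 read 7.41 on cKO replicate 5, against 7.17 to 7.25. Without cKO replicate 6 the difference of Dcx was 0.09 and passed the threshold.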

How the results depend on the processing

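Over 24 alternatives the single-gene results kept their direction, except Map1b, whose difference of 0.01 was -0.004 without cKO replicate 4 and ran from -0.004 to 0.03 over single arrays left out. Of 811 such comparisons, 777 also kept their side of the threshold, 24 lost the call and 9 gained it. Of the 10 genes, 2 passed as lower and 0 as higher; leaving out 1 array gave 0 to 3 lower and 0 to 1 higher. Of the other cytoskeleton genes, 2 were lower and 1 higher; leaving out 1 array gave 1 to 3 lower. Over all probe sets, 109 were lower and 76 higher, and leaving out 1 array gave 66 to 134 lower and 39 to 93 higher. With the replicate number as a block, 0 of the 10 and 1 other cytoskeleton gene were lower, 0 other cytoskeleton genes were higher, and 40 probe sets were lower and 24 higher. Same-numbered arrays had correlations of -0.22 to 0.15 and 0 of 12 arrays correlated best with their own number. The numbers were therefore not taken as pairs, but these correlations cannot exclude a pairing by litter, which the labels do not state. With the cortical marker level as a covariate, the counts were 0 of the 10, 1 other cytoskeleton gene, and 58 probe sets lower and 41 higher. At an adjusted p under 0.01 in limma they were 0, 1, 42 and 19. Without WT replicates 3 and 6, chosen after seeing the data, 1 other cytoskeleton gene was lower and 45 probe sets were higher. Without dim probe sets, 3 of the 10 and 3 other cytoskeleton genes were lower, 160 probe sets were lower and 118 higher, and Nefh was not tested. With Y-linked expression in the model, 3 of the 10 and 2 other cytoskeleton genes were lower, and 98 probe sets were lower and 53 higher. The causes were not tested. Signal near the array median limits what can be seen for Nefh, Nefm and Actn2. For Ina, Map1b, Stmn2 and Dcx, near the top of the arrays, values that move in steps of rank limit it too.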
